A study of Mus musculus with 12 samples.

Results

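The signal peptidase complex is the membrane enzyme of the endoplasmic reticulum (ER) that cuts the signal peptide from proteins entering the secretory pathway. Its 5 subunit genes, Sec11a, Sec11c, Spcs1, Spcs2 and Spcs3, were taken by symbol from the 23362 genes of the count tables, and all 5 were found and were abundant enough to be tested in every comparison. The study sequenced polyadenylated RNA of C57BL/6 mouse cells at a pair of stages of eosinophil development. GMP are granulocyte-macrophage progenitors, the bone marrow cells from which granulocytes and monocytes arise, sorted into Trizol without culture. GATA2-GMP are GMP that were sorted, transduced with GATA2, sorted again and kept in culture for 48 hours. Both stages came from wild-type mice (WT, 3 libraries a stage) and from Xbp1-deficient ones (KO, 3 libraries a stage), 12 libraries in 4 groups. GMP RNA went into TruSeq libraries directly and GATA2-GMP RNA first through a SMARTer Ultra kit for low input, so stage, transduction, culture and kit cannot be told apart. The labels used here give no Xbp1 allele, no Cre or promoter, no sort gate and no animal behind a replicate number, so p-values measure only the spread between these libraries, which may be technical.

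Most secreted and many membrane proteins begin with a signal peptide that brings the ribosome to the Sec61 channel, and signal peptidase removes it on the inner side of the ER membrane while the chain is still being made. Sec11a and Sec11c encode alternative catalytic subunits, each of which forms its own enzyme with the accessory subunits encoded by Spcs1, Spcs2 and Spcs3. XBP1 is a transcription factor that the ER stress sensor IRE1 switches on by splicing its mRNA, and it is known for driving genes of ER import, folding and glycosylation in secretory cells. Eosinophils and their precursors pack large amounts of granule proteins that carry signal peptides.

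Promoter windows of 300 bases (250 before to 50 after the start, RefSeq, build GRCm38.p6) were at hand for 3 of the 5 genes, Sec11a, Spcs1 and Spcs2. They were searched on both strands for letters that XBP1 and its relatives are known to bind. None of the 3 holds the ER stress element ERSE (CCAAT, 9 bases, CCACG), which 0.119% of the 32851 windows hold, its variant ERSE-II (ATTGG, 1 base, CCACG; 0.0365%) or the unfolded protein response element TGACGTGG (0.676%). The letters CCACG, which end both ER stress elements, are in all 3 windows and in 32.8% of all windows. Spcs2, with one of the largest differences between genotypes among the 5 genes in GMP, has CCACG once, 246 bases before its start. Spcs1, with the smallest, has it 4 times, at 186, 92 and 60 bases before and once after its start. The 2 stretches printed here set those genes side by side, each 30 bases read 5′ to 3′ on the gene's strand with CCACG in capitals. Spcs2 lies at chr7:99859104-99859133 and Spcs1 at chr14:31001709-31001738, both on the minus strand.
Spcs2: cgctCCACGgtggcgcttgccacagccttc
Spcs1: gctctgcagcagCCACGtagggccacaacc
In Spcs1 the capitals run into a second pattern searched, ACGT, which is in 30.9% of all windows and in neither of the other 2 genes. A match is a description of letters only.

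The genes lie at separate places of the mouse genome (build mm9, GENCODE models). Sec11a is on chromosome 7 from 88049775 to 88092666 (minus strand), Spcs2 on chromosome 7 from 106987513 to 107007403 (minus), Spcs1 on chromosome 14 from 31813012 to 31814858 (minus), Spcs3 on chromosome 8 from 55605787 to 55615351 (minus) and Sec11c on chromosome 18 from 65960203 to 65977319 (plus). Exons of Spcs1 share 276 bases with exons of Glt8d1 on the other strand. Exons of Sec11a share 379 bases with those of Nmb on the same strand and Gm16171 on the other. The strand setting and annotation of the counting are not given in the sources used here. How reads from these stretches were counted is therefore not known. The genome holds 1 near copy each of the Spcs1 and the Spcs2 transcript (at least 200 aligned bases at 95% identity or more), both at 95.7% identity, over 69.3% of the Spcs1 and 99.4% of the Spcs2 transcript. Counts of these 2 genes are therefore less certain than those of Spcs3, Sec11a and Sec11c, for which no such copy was found.

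Libraries held 8219366 to 33640911 counts in genes, and each subunit gene had 648 to 19228 reads in a library. Levels are CPM (reads of a gene relative to library size) with library sizes scaled by TMM over all 12 libraries, and fold changes come from edgeR's quasi-likelihood test with Benjamini-Hochberg adjustment over every gene in the fit and 0.05 as the threshold. Xbp1 itself, whose reads at the level of the gene include any exon outside a deleted part, was at 131, 133 and 153 CPM in GMP WT and 89.7, 55.9 and 56.8 CPM in GMP KO. In GATA2-GMP it was at 381, 269 and 197 CPM in WT and 99.8, 121 and 128 CPM in KO, so that every KO library lay below every WT library of its stage (log2 fold changes -1.06 and -1.28, adjusted p = 0.0919 and 0.0959). Markers of GMP, a list of 8 led by Mpo, were all detected in each group and summed to 25522 to 28116 CPM in GMP WT and 21880 to 25976 CPM in GMP KO. Fewer cells of a type and less RNA per cell cannot be told apart in these bulk libraries.

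In freshly sorted GMP, 3 of the 5 subunit genes fell in Xbp1-deficient cells and none rose. The accessory subunit Spcs3 fell by 44.3%, Spcs2 fell by 42.9% and the catalytic subunit Sec11c fell by 25.7%. Over all 12002 genes tested 3.17% passed the threshold, and 2.52% passed it as lower (381 genes in all, 237 without GMP WT 3 and 209 without GMP KO 3, with 3 subunit genes called each time). The median log2 fold change of the 5 was -0.43, beside 0.0058 over all genes.

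Spcs3 encodes the accessory subunit whose yeast counterpart is needed for the enzyme to cut at all. It was at 359.8, 368 and 407 CPM in GMP WT and at 219, 224 and 195 CPM in GMP KO, with a clear gap between the groups. Its mean went from 378 ± 25.0 to 213 ± 15.4 CPM (SD, n = 3 each; edgeR log2 fold change -0.84, SE 0.063, 95% interval -0.98 to -0.71, adjusted p = 1.6e-05), the 8th smallest p of the 12002 genes. Spcs2, the other large accessory subunit, was at 233, 225 and 234 CPM in WT and 141, 136 and 122 CPM in KO. The WT libraries of Spcs2 lay within 10 CPM of each other and far above all KO libraries. The mean of Spcs2 went from 231 ± 4.98 to 133 ± 9.83 CPM (SD, n = 3 each; edgeR log2 fold change -0.81, SE 0.055, 95% interval -0.93 to -0.69, adjusted p = 1.31e-05), the 3rd smallest p of all genes tested.

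The catalytic paralogs differed less between genotypes. Sec11c was at 79.0, 83.3 and 86.7 CPM in GMP WT and 62.4, 66.1 and 58.0 CPM in GMP KO. The groups of Sec11c did not overlap, and its log2 fold change was -0.43 (SE 0.062, 95% interval -0.56 to -0.29, edgeR adjusted p = 0.00154). Sec11a was at 89.9, 90.3 and 83.4 CPM in WT and 78.1, 78.6 and 68.0 CPM in KO, again without overlap. Its log2 fold change was -0.24 (SE 0.060, 95% interval -0.37 to -0.11), with an edgeR adjusted p = 0.0509 just outside the threshold. GMP libraries with the same replicate number deviated together, and in the fit with the replicate number as a block Sec11a passed (log2 fold change -0.24, adjusted p = 0.00442), which made 4 of the 5 genes lower. That fit called more genes in general, 964 of all 12002 in place of 381.

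Spcs1 encodes a small accessory subunit known for helping the enzyme tell signal peptides from other membrane segments. It was at 67.2, 70.5 and 63.9 CPM in GMP WT and 64.9, 65.6 and 58.0 CPM in GMP KO, and here the groups overlapped. The log2 fold change of Spcs1 was -0.11 (SE 0.060, 95% interval -0.24 to 0.02, edgeR adjusted p = 0.45). That interval lies wholly above those of Spcs2, Spcs3 and Sec11c and overlaps that of Sec11a. In all, 4 of the 5 genes had each KO library below each WT library, as did 8.09% of all genes tested.

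**Figure D1:**
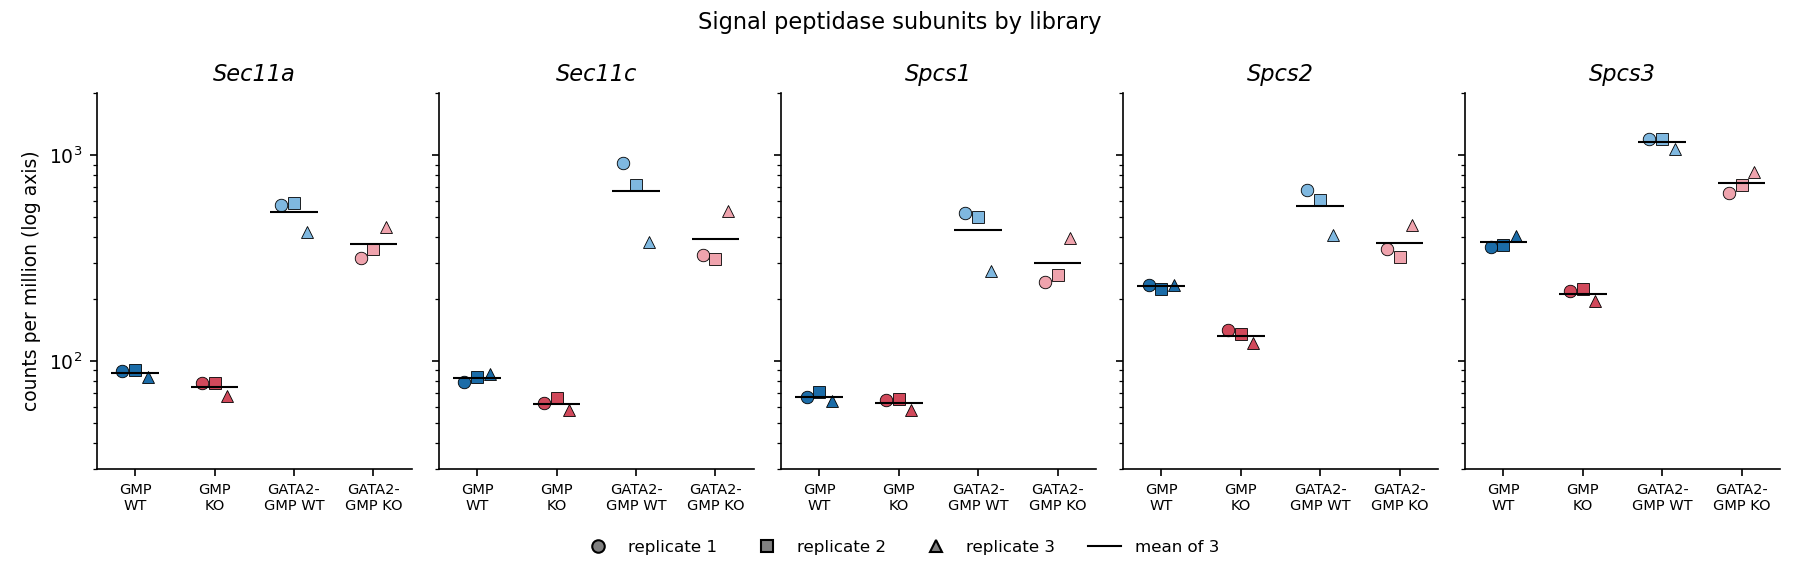
Level of each subunit gene in the 12 libraries, in CPM on a log axis, with 1 point per library shaped by replicate number and a line at the mean of 3. In GMP the KO points of Spcs2 (122 to 141 CPM) and Spcs3 (195 to 224 CPM) lie far below the WT points, while those of Spcs1 overlap; in GATA2-GMP all genes are higher and replicate 3 departs from the other replicates of its group in both genotypes for Sec11a, Sec11c, Spcs1 and Spcs2.

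The calls of Spcs2 and Sec11c in GMP depended on which libraries were in the fit. With all 12 libraries in 1 fit their adjusted p became 0.282 and 1.0 at log2 fold changes of -0.80 and -0.42, and Spcs3 alone passed (adjusted p = 0.0499). The 10 eosinophil markers summed to 77.1 to 273 CPM in GMP WT and 318 to 644 CPM in GMP KO, with Prg2 in the lead. Ear10 was at 0 in both groups. Ear2 and Ear10 were too low to be tested in GMP, and none of the tested markers passed the threshold. The 8 erythroid and megakaryocyte markers summed to 18.1 to 35.4 CPM in WT and 14.8 to 16.3 CPM in KO, also without overlap. The 8 of mast cells and basophils overlapped, at 110.3 to 133 and 111.5 to 135 CPM, with 1 of them past the threshold as higher in KO. The part of these markers in the subunit results was not tested.

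In GATA2-GMP none of the 5 subunit genes passed the threshold between genotypes, where 0.376% of 11699 genes did. That share, 44 genes, rests on single libraries: it was 0 genes without KO library 1 or KO library 3, 8 without WT library 1, 20 without KO library 2, 28 without WT library 2 and 525 without WT library 3. All 5 had a lower mean in KO, with log2 fold changes from -0.51 to -0.77 and a median of -0.58, beside -0.0049 over all genes. By edgeR 1 gene, Spcs3, had an unadjusted p under 0.05. Such values were common, since that of Spcs3 was only the 898th smallest of the 11699 genes. Spcs2, the next of the 5, was 1901st and outside the cutoff. DESeq2 called none of the 5 after adjustment and gave 3 an unadjusted p under 0.05. The share of all genes under that cutoff by DESeq2 was not counted, so the 3 cannot be set against it.

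In GATA2-GMP, Spcs3 was at 1207, 1206 and 1072 CPM (WT) and at 659.7, 716 and 832 CPM (KO). It was the one subunit gene whose groups did not overlap, as 12.3% of all genes did with KO lower. The log2 fold change of Spcs3 was -0.66 (SE 0.23, 95% interval -1.17 to -0.14, edgeR adjusted p = 0.234), and in the fit with all 12 libraries it passed (adjusted p = 0.0127). Spcs2 was at 679, 606 and 409 CPM in WT and 349, 320.1 and 459 CPM in KO (log2 fold change -0.58, SE 0.27, adjusted p = 0.353). For Spcs2 the third WT library lay below the third KO library, so the groups crossed.

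The catalytic subunits crossed in the same way. Sec11c was at 914, 718 and 379 CPM in WT and 328, 313 and 536 CPM in KO (log2 fold change -0.77, SE 0.36, 95% interval -1.58 to 0.04, adjusted p = 0.36). Sec11a was at 572, 590.0 and 425 CPM in WT and 317, 351 and 447 CPM in KO (log2 fold change -0.51, SE 0.24, adjusted p = 0.38). The accessory gene Spcs1 was at 526, 502 and 275 CPM in WT and 243, 262 and 395 CPM in KO (log2 fold change -0.53, SE 0.31, adjusted p = 0.469). In each of these 3 genes and in Spcs2, WT libraries 1 and 2 were the highest of the 6, and KO library 3 was the next.

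Without WT library 3 the log2 fold changes of Spcs1, Spcs2, Spcs3, Sec11a and Sec11c were -0.78, -0.78, -0.71, -0.65 and -1.06. Their edgeR adjusted p was 0.0571 (Sec11c) to 0.119 (Sec11a), so none of the 5 passed, while 525 of 11980 genes did. Without KO library 3 the log2 fold changes were -0.79, -0.76, -0.76, -0.66 and -1.07, with edgeR adjusted p of 0.312 to 0.395. In each of these fits all 5 had an unadjusted p under 0.05, but the share of all genes under that cutoff was not counted. Without WT library 1 the log2 fold changes were nearer 0, at -0.37, -0.43, -0.63, -0.45 and -0.48, with adjusted p of 0.551 to 0.843. Without any other library they were from -0.40 to -0.72. A measure of library content moved with the same libraries: reads aligned once that fell in no gene made up 19.9, 20.6 and 24.9% of such alignments in GATA2-GMP WT and 27.5, 26.4 and 24.8% in KO. So the third libraries of both genotypes, which crossed for 4 subunit genes, had nearly equal shares. Its part in the subunit results was not tested.

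Of the summed markers of mature cell types given here, those of eosinophils did not overlap between genotypes and those of mast cells and neutrophils did. The eosinophil markers summed to 135500 to 206820 CPM in WT and 55837 to 67899 CPM in KO. The 8 markers of mast cells and basophils, led by Cpa3, summed to 3844 to 12665 CPM in WT and 7049 to 12627 CPM in KO, and the 7 of neutrophils, led by Ngp, to 40643 to 72325 and 36449 to 61227 CPM. The 8 GMP markers summed to 4706 to 6010 CPM in WT and 3419 to 4238 CPM in KO. The part of cell makeup in the subunit results was not tested.

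**Figure D2:**
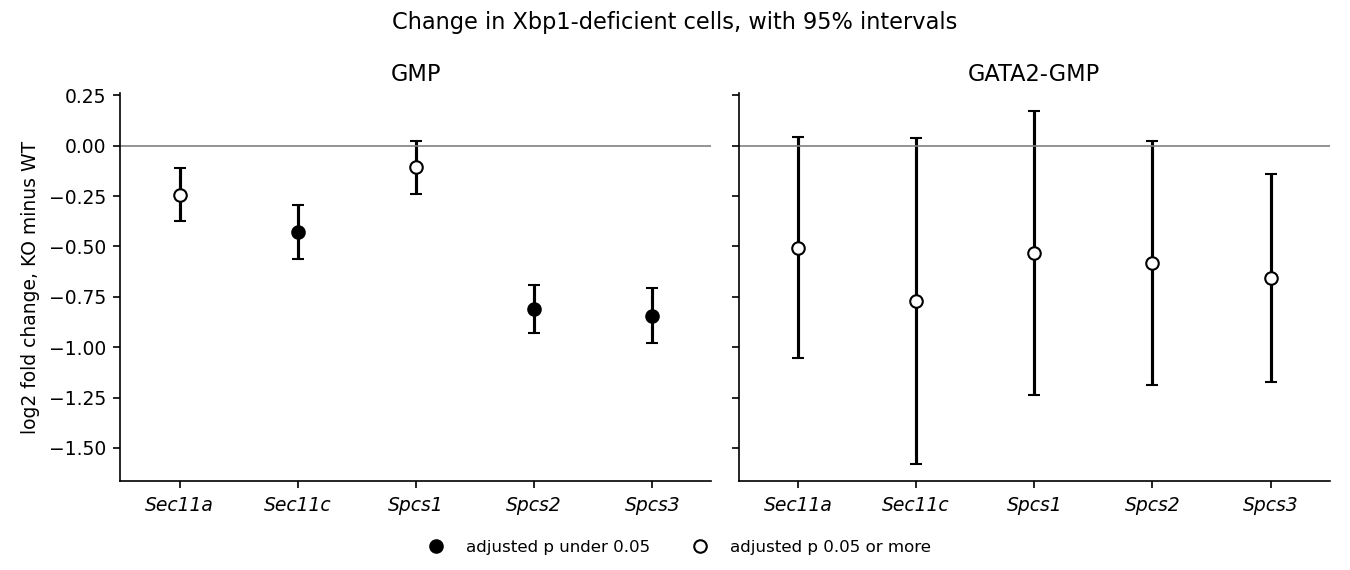
Log2 fold change of each subunit gene, KO minus WT, in GMP and in GATA2-GMP, with 95% intervals from the edgeR fit of each stage (3 libraries a group). Filled points have an adjusted p under 0.05: Sec11c, Spcs2 and Spcs3 in GMP and none in GATA2-GMP, where the intervals are wider and only that of Spcs3 (-1.17 to -0.14) leaves out 0.

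Whether the genotype difference itself changed between the stages was tested as an interaction over all 12 libraries, and no subunit gene passed, where 0.0859% of 12803 genes did, or 11 genes (0 without GATA2-GMP KO 1, 127 without GATA2-GMP WT 2, 1179 without GATA2-GMP WT 3, and 1 to 2 without any 1 GMP library); edgeR and DESeq2 each called 0 of the 5 after adjustment, and edgeR gave 0 an unadjusted p under 0.05. The interaction was -0.44 for Spcs1 (SE 0.33, 95% interval -1.16 to 0.28, adjusted p = 0.61). The values were -0.36 for Sec11c and -0.28 for Sec11a, and 0.21 for Spcs2 and 0.17 for Spcs3. Their order by size was not stable: without GATA2-GMP WT 1, Spcs2 was at 0.35, Spcs1 at -0.29 and Sec11c at -0.083, and without GATA2-GMP KO 3 they were at 0.04, -0.69 and -0.65. The 95% intervals of all 5 held 0, but reached down to -0.79 for Sec11a and -1.2 for Sec11c and up to 0.79 for Spcs2.

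Between the stages, all 5 subunit genes rose from GMP to GATA2-GMP in both genotypes, and the catalytic subunits and Spcs1 rose the most. In WT the log2 fold change was 3.02 for Sec11c (SE 0.32, adjusted p = 9.27e-05), 2.70 for Spcs1 (SE 0.27, adjusted p = 6.45e-05) and 2.60 for Sec11a (SE 0.19, adjusted p = 1.42e-05). The large accessory subunits rose by 1.63 (Spcs3, SE 0.17, adjusted p = 6.73e-05) and 1.30 (Spcs2, SE 0.21, adjusted p = 0.000858). In KO Sec11a came before Spcs1 in this order, with 2.67 for Sec11c, 2.32 for Sec11a, 2.26 for Spcs1, 1.80 for Spcs3 and 1.51 for Spcs2, with adjusted p from 3.4e-06 to 4.17e-05. In both genotypes every GATA2-GMP library lay above every GMP library for each subunit gene, as for 35.8% of all genes tested in WT and 39.6% in KO.

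Such changes were common here, since 70.5% of 12251 genes passed in WT and 34.1% passed as higher, and 78.6% of 12438 genes passed in KO and 38.6% as higher. The values also rest on the scaling of libraries made with different kits. With total counts in place of TMM the median of all genes moved from -0.09 to -0.93 in WT and from -0.05 to -0.73 in KO, and Spcs2 in WT went to 0.45 and no longer passed (adjusted p = 0.0576). All 5 genes kept a positive value in both genotypes under each scaling tried, and stayed above the median of all genes.

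Levels can be set against each other between genes only per length, here as CPM per kilobase of the longest coding transcript (for Spcs3 the longest annotated one, which the annotation does not type as coding). In GMP WT the level was 166 ± 3.58 for Spcs2, 109 ± 7.20 for Spcs3, 103 ± 4.77 for Sec11c, 66.6 ± 3.28 for Spcs1 and 65.3 ± 2.87 for Sec11a (CPM per kilobase, SD, n = 3). The libraries of Spcs3 and Sec11c overlapped, as did those of Spcs1 and Sec11a. In GMP KO Spcs2 was still the highest at 95.6 ± 7.06, followed by Sec11c at 77.0 ± 4.98, and Spcs1, Spcs3 and Sec11a lay between 55.7 and 62.3 with overlap between neighbours. The spread of mean levels over the 5 subunits was thus narrower in GMP KO (55.7 to 95.6) than in GMP WT (65.3 to 166), a description without a test.

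In GATA2-GMP the order turned, with Sec11c in the lead at 831 ± 336 CPM per kilobase in WT and 486 ± 155 in KO, and Spcs3 last at 335 ± 22.4 and 212 ± 25.3. Each pair of neighbours in that order overlapped between libraries in both genotypes. The place of Sec11c depends on the length used: per kilobase of all annotated exons Spcs2 came first, then Spcs3, Spcs1, Sec11c and Sec11a in all 4 groups.

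The balance of the alternative catalytic subunits was read as the share of Sec11c in the reads of Sec11a and Sec11c, which needs no library scaling. The share was 46.8, 48.0 and 51.0% in GMP WT and 44.4, 45.7 and 46.1% in GMP KO, so each KO library lay below each WT library. The mean share was lower in KO (difference -3.20 percentage points; 48.6 ± 2.15 against 45.4 ± 0.862%, SD, n = 3 each; two-sided exact permutation p = 0.1, the smallest that 3 against 3 libraries can give). In GATA2-GMP it was 61.5, 54.9 and 47.1% in WT and 50.9, 47.1 and 54.5% in KO, which overlapped (mean difference -3.69 points, exact permutation p = 0.4). Per kilobase of coding transcript the mean shares of Sec11c were 61.1 and 58.1% in GMP and 66.5 and 63.2% in GATA2-GMP, for WT and KO in turn.

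Over all 5 genes, the makeup of the reads shifted in GMP. Spcs3 took 44.6 ± 1.64% of the reads in WT and 39.0 ± 0.317% in KO, and Spcs2 27.3 ± 0.745 and 24.4 ± 0.583%. The other 3 took larger shares in KO, 11.5 against 7.94% for Spcs1, 13.7 against 10.4% for Sec11a and 11.4 against 9.80% for Sec11c. For each of the 5 genes the GMP groups did not overlap (exact permutation p = 0.1 each, and 0.167 after Benjamini-Hochberg adjustment over the 10 shares compared), so the test could not pass. In GATA2-GMP the differences, KO minus WT, were between -1.59 and 1.27 points and the groups overlapped for all but Sec11a (15.9 against 17.1%, exact permutation p = 0.1). The shares of the 5 add up to 100%, so they are not separate results.

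**Figure D3:**
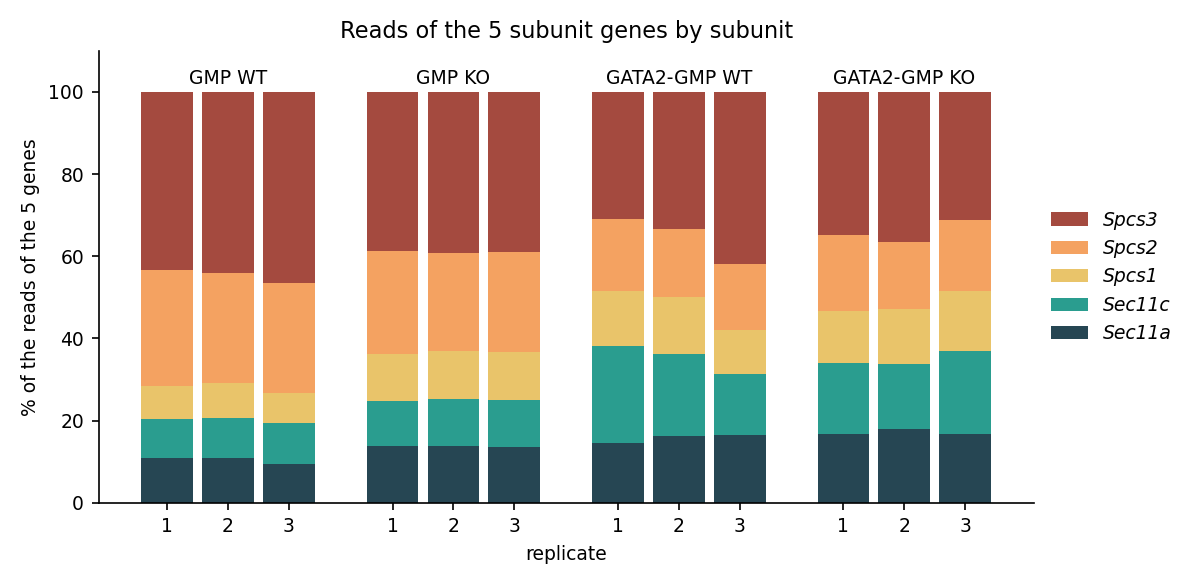
Percentage of the reads of the 5 subunit genes that each gene took, with 1 bar per library and the 4 groups side by side. The bars of GMP KO are alike and differ from GMP WT in a smaller part for Spcs3 (39.0 against 44.6%) and Spcs2; the bars of GATA2-GMP WT differ among themselves, with Sec11c smaller and Spcs3 larger in replicate 3.

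The genes most like each subunit were sought by Pearson correlation of log2 CPM over the 12 libraries after the mean of each stage was taken away, among 8741 genes with a mean of at least 10 CPM. For Spcs3 they were P4hb, a protein disulfide isomerase of the ER (r = 0.982), Nucb2, a calcium-binding protein of the secretory pathway (0.978), and the tubulin gene Tuba1a (0.977). All of these 3 passed in GMP, with log2 fold changes of -1.14, -1.64 and -0.74. For Spcs2 they were Bet1, a SNARE of ER-to-Golgi transport (0.985), Ufsp2, a protease of the UFM1 pathway (0.978), and Ssr3, a subunit of the translocon-associated protein complex (0.976), which fell in GMP by 0.86, 0.69 and 0.76 on the log2 scale.

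For Sec11c the nearest were Tmem258, an oligosaccharyltransferase subunit (0.996), Ift20 (0.993) and Vma21, an assembly factor of the proton pump of vacuoles (0.992). In GMP, Tmem258 and Ift20 fell by 0.41 and 0.36 and Vma21 did not pass (-0.25, adjusted p = 0.0869). For Sec11a they were Yif1a, a protein of ER-to-Golgi vesicles (0.987), Emc3 of the ER membrane insertase EMC (0.985) and Tsn (0.978), of which Yif1a and Tsn fell in GMP by 0.41 and 0.20 and Emc3 did not pass (-0.14, adjusted p = 0.263). For Spcs1 they were Ndufa4 and Ndufa5, genes of the mitochondrial respiratory chain (0.994 and 0.993), and Sdf2 (0.991). None of the 3 genes nearest Spcs1 passed in GMP (log2 fold changes -0.16 to -0.07), and none of the 15 genes passed in GATA2-GMP. The libraries share depth and preparation within a stage, and GATA2-GMP, which varied more, weighs most in these correlations. The difference between genotypes itself enters the correlation, so the values of these genes in GMP follow in part from how they were chosen and are a description.

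Other steps of protein entry into the ER were read from lists chosen by function, with earlier results of these data known. In GMP KO, 12 of the 21 tested genes of ER targeting and translocation fell and none rose, with a median log2 fold change of -0.33; Sec61b, a subunit of the channel itself, fell by 0.94 (adjusted p = 3.5e-05) and Ssr3 by 0.76 (adjusted p = 0.000148). Of the 12 genes of oligosaccharyltransferase, the enzyme that attaches sugar chains beside the channel, 9 fell and none rose (median -0.47), led by Rpn1 (-1.37) and Magt1 (-0.78), each with adjusted p = 1.31e-05. Signal peptidase, with 3 of 5, thus stood beside 12 of 21 and 9 of 12 in these lists, and 2.52% of all genes.

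Few genes of other cleavage steps passed, and few did over all genes tested in GMP (3.17%, and 2.52% as lower). Lists this small cannot tell a lack of change from that share. None of the 4 tested genes of the intramembrane signal peptide peptidases, which clear signal peptides after they are cut off, passed in GMP (median -0.07; Sppl2a -0.20, adjusted p = 0.0835; H13, the signal peptide peptidase proper, -0.08, adjusted p = 0.506). Of the 5 genes of the GPI transamidase, which swaps a terminal signal for a lipid anchor, Pigk, its catalytic subunit, fell by 0.29 (adjusted p = 0.0184), none rose and the median was 0.05. None of the 7 mitochondrial presequence peptidases passed (median 0.00, from -0.32 to 0.14), nor did any of the 5 tested proteases of later secretory steps (median -0.02), among them Furin (-0.47, adjusted p = 0.233). Of 9 tested granule cargo genes with a signal peptide, Elane, the neutrophil elastase, fell by 1.18 (adjusted p = 1.01e-05) and no other passed.

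In GATA2-GMP KO, 2 of these genes of protein entry passed, both oligosaccharyltransferase subunits: Rpn1 (-2.0, adjusted p = 0.0115) and Ddost (-1.73, adjusted p = 0.0405). The median was -0.89 over the 12 oligosaccharyltransferase genes and -0.28 over the 21 of targeting and translocation, none of which passed, beside -0.58 for signal peptidase. The 4 intramembrane peptidases (median -0.18), 5 GPI transamidase genes (0.16), 7 mitochondrial peptidases (0.52) and 5 later proteases (0.00) held none that passed. Over all genes tested in GATA2-GMP 0.376% passed. Of 10 cargo genes, the eosinophil ribonucleases Ear1 (-6.51) and Ear2 (-6.30) fell, each with adjusted p = 0.00899. Without KO library 1 or without KO library 3 no gene at all passed in GATA2-GMP, so these 4 calls are lost there. In WT from GMP to GATA2-GMP, 14 of the 21 targeting and translocation genes rose and 2 fell, and 8 of the 12 oligosaccharyltransferase genes rose and 3 fell, beside 5 of 5 for signal peptidase and the 34.1% of all genes that passed as higher. In KO the counts were 15 and 3 of 21, 7 and 4 of 12 and 5 of 5, beside 38.6% of all genes.

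**Figure D4:**
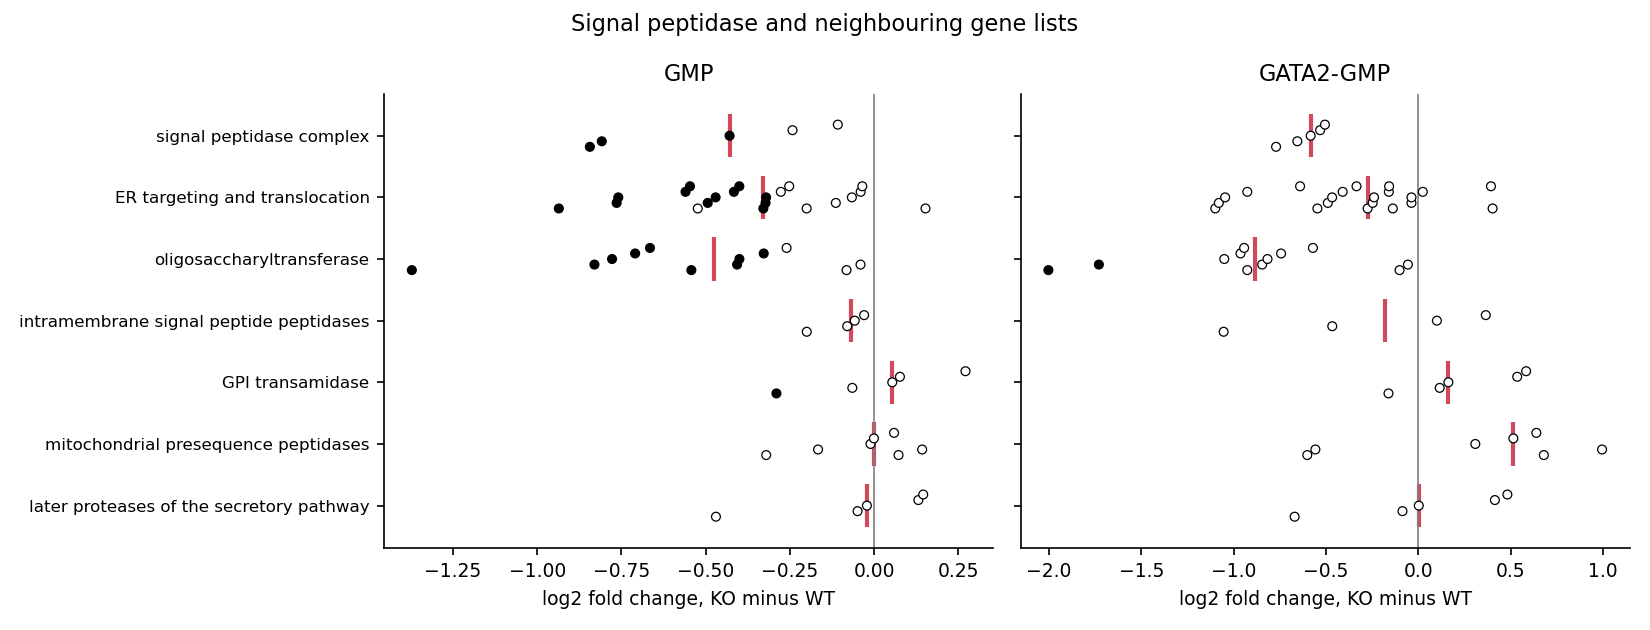
Log2 fold change, KO minus WT, of each tested gene in signal peptidase and 6 other lists of ER entry and cleavage (granule cargo is not drawn), in GMP and GATA2-GMP (axes differ), with a red bar at the list's median and filled points for an adjusted p under 0.05. In GMP the filled points lie in signal peptidase (3), ER targeting and translocation (12), oligosaccharyltransferase (9) and GPI transamidase (1).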

How the data were processed

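Each library's deposited table gives whole-number read counts by gene symbol with unequal sums, so the values were taken as the authors' counts before any normalization. The submitters' processing notes name the build mm9 and, without roles, HTSeq, DESeq, STAR 2.3.0 and SAMtools 0.1.14; strand setting and annotation are not given in the sources used here. Of 23366 genes, 4 whose names a spreadsheet had made into ambiguous dates were left out. The 5 rows of reads without a gene (55.8 to 66.5% of records) stayed out of library sizes. No library repeated another.

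Each comparison was fitted with edgeR 4.0.16 in R 4.3.3 (filterByExpr, TMM, estimateDisp, robust glmQLFit, glmQLFTest) on its own libraries. Simulated counts with a preset spread were fitted only for the genotype comparisons within GMP and within GATA2-GMP. The interaction and the stage comparisons were not simulated. SE is the log2 fold change over the root of F. Shares used exact permutation tests (scipy 1.17.1). Alternatives were DESeq2 1.42.0, other scalings, no filter, a replicate block, a joint fit and leaving out each library. Deviations of same-numbered GMP libraries correlated at 0.338, 0.255 and 0.188, but the labels do not say whether the numbers pair libraries. The main fits left the replicate number out, and it entered only as the block among the alternatives.

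Members and lists were chosen with earlier results of these data known. All members, the 3 genes most like each, and up to 2 genes per list by adjusted p in each genotype comparison are named. H13 is the files' name for Hm13, matched after seeing the files.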

Additional observations from a re-analysis of the deposited data

How the results depend on the processing

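Calls of the 5 genes were recomputed under each alternative. In 84 cases the count of the 5 genes past the threshold was equal or within 1.5 times, or the difference in the Sec11c share kept its sign. The size of the share difference was not part of that rule. With all 12 libraries in 1 fit, 1 gene passed in GMP in place of 3 (Spcs3, beside 17 of all genes). In GATA2-GMP 1 passed in place of 0 (Spcs3, beside 1461 of all genes). The stages then share 1 spread, gene filter and scaling, and the part of each in the changed calls was not tested. Leaving out each library in turn gave 3 to 4 genes in GMP, 0 in GATA2-GMP and 0 for the difference between stages, and 5 for stage in both genotypes. The difference in the Sec11c share was then between -4.10 and -2.01 points in GMP, and between -7.38 and -0.19 points in GATA2-GMP.

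With the replicate number as a block, 4 genes passed in GMP, 0 in GATA2-GMP, 0 for the difference between stages and 5 for stage in WT and in KO; no call other than that of Sec11a in GMP changed. The block made 964 genes pass in GMP in place of 381, and 3 in GATA2-GMP in place of 44, where same-numbered libraries deviated at -0.133, -0.303 and -0.474 and share only a number.

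Sec11a in GMP also passed with DESeq2 (adjusted p = 0.026), without a filter on low counts (0.0368) and without GMP KO 1 (0.0411). With the block these made 4 of 13 alternatives. Sec11a did not pass under the others, among them total-count scaling (edgeR adjusted p = 0.123), upper-quartile scaling (0.0678) and leaving out GMP KO 3 (0.2355). In GATA2-GMP, the difference in share of all 5 genes' reads turned to 0.457 points for Sec11c without WT 1 (-3.87 without WT 3), to -0.036 for Spcs1 and 2.03 (32.1 to 34.2%) for Spcs3 without WT 3, and to 0.263 for Spcs3 without KO 3 (-3.44 without WT 1); the cause was not tested. Each of the 5 genes had at least 648 reads a library; the spread between libraries was larger in GATA2-GMP (SE 0.23 to 0.36) than in GMP (SE 0.055 to 0.063). Proteins, enzyme activity and splice forms were not measured.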
